A study of Homo sapiens with 6 samples.

Results

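The comparison described here asked how the response to TEAD4 knockdown differed between 2 human colorectal cancer cell lines. For each gene, the log2 ratio of the mean of both knockdown libraries to the control library was taken in SW620 and in HCT116, after adding 1 to each value, and the HCT116 ratio was subtracted from the SW620 ratio. The result, called D below, is positive where knockdown left a gene higher, relative to its own control, in SW620 than in HCT116. It was read over 10690 of the 26336 named genes, those that averaged at least 50 normalized counts in each line, so that both lines could show a response. Of the 15646 genes left out, 13276 were below that mean in both lines, 1149 in SW620 only and 1221 in HCT116 only. The gene just inside the minimum, KANTR, averaged 50.01 in its lower line and had D = 0.65, and the gene just outside, ZNF764, averaged 49.96 and had D = -0.88. Members were genes with opposite or one-line responses among these 10690, and responses shared by both lines were not described.

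RNA sequencing libraries were made with a TruSeq kit from total RNA of SW620 and HCT116, established lines from colorectal tumours. Each line gave 2 libraries labelled shTEAD4, in which a short hairpin RNA targets the TEAD4 transcript, and 1 control library labelled pLKO, the name of the hairpin vector. The cells were grown in DMEM with serum, and no drug treatment was given in any library. Whether the pair of shTEAD4 libraries of a line came from separate hairpins or separate cultures is not stated in the labels, so p-values measure only the spread between these libraries, which may be technical.

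TEAD4 is one of the TEAD transcription factors, which bind DNA but need the coactivators YAP and TAZ (the product of WWTR1) to switch on most of their targets. The Hippo kinases hold YAP and TAZ outside the nucleus, and YAP is often active in colorectal cancer. CTGF and CYR61 encode secreted matrix proteins of the CCN family and are the textbook readouts of YAP/TAZ-TEAD activity. TEADs often share enhancers with AP-1, the dimer of FOS and JUN proteins that relays ERK signalling. In bulk RNA, a change in the number of cells of a kind and a change in RNA per cell cannot be told apart.

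The control regions of 4 genes on which the comparison turned are shown here, CTGF as the gene with the smallest p in the test between lines and EMP1, ANXA1 and PLIN2 as genes with opposite responses. Each is the 250 bases before the annotated start, 5′ to 3′ on the gene's own strand, from RefSeq on GRCh38.p14. Capitals mark the TEAD motif CATTCC or its reverse complement GGAATG, and the AP-1 motif TGANTCA, searched on both strands. The CTGF region is chr6:131951373-131951622 on the minus strand, EMP1 is chr12:13196476-13196725 on the plus strand, ANXA1 is chr9:73151615-73151864 on the plus strand and PLIN2 is chr9:19127493-19127742 on the minus strand.
CTGF: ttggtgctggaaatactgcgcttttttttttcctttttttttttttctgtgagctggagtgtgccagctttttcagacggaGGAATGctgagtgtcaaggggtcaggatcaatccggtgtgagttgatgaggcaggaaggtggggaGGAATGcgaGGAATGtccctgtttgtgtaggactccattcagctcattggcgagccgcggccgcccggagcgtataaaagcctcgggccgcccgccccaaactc
EMP1: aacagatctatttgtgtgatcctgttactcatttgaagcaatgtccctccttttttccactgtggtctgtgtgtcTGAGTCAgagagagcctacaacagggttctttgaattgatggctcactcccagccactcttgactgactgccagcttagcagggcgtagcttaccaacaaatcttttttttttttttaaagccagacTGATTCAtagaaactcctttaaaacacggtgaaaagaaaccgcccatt
ANXA1: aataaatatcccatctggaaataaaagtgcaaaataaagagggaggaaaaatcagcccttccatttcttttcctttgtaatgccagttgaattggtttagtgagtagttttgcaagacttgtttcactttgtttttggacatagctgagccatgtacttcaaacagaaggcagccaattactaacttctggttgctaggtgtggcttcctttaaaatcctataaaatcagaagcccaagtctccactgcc
PLIN2: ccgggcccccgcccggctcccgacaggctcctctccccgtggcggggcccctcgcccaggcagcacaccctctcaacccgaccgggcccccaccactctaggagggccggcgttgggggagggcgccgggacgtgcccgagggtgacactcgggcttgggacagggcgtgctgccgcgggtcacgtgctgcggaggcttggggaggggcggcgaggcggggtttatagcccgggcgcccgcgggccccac
The CTGF region held 3 TEAD motifs and EMP1 held 2 AP-1 motifs, while ANXA1 and PLIN2 held neither. A TEAD motif was found in 8.85% of the 8682 promoters matched to the genes compared, and an AP-1 motif in 3.33%. Of the opposite genes with a promoter in the table, 0 of 2 that were higher in SW620 and 0 of 8 that were lower in SW620 held a TEAD motif. For the AP-1 motif the counts were 0 of 2 and 1 of 8, and EMP1 was that gene. A match to letters is a description and not a binding site.

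TEAD4 itself was low in every knockdown library of both lines. It had 268 and 234 normalized counts in the SW620 knockdown libraries, against 1140.4 in the SW620 control. In HCT116 it had 68.2 and 68.6 in the knockdown libraries, against 355 in the control. The log2 ratio was -2.18 in SW620 and -2.36 in HCT116, so D was 0.18, and limma, which fits all genes together and borrows their spread, put the difference between lines at 0.17 ± 0.49 (SE; 2 knockdown and 1 control library per line) with an unadjusted p of 0.736. The authors' deposited table lists an adjusted p of 1.92e-05 for TEAD4 in SW620 and 0.432 in HCT116. The SW620 control carried more TEAD4 counts than the HCT116 control, on scales that were normalized separately.

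The libraries held 15778571 to 18859715 reads on named genes. The knockdown libraries of SW620 stood closer to each other than those of HCT116, with a median distance between them of 0.20 log2 units in SW620 and 0.44 in HCT116. HCT116 knockdown library 1 is the one on which several HCT116 results below rest. Epithelial identity was clear in all 6 libraries, with EPCAM between 2588.7 and 8350.2 and KRT8 between 56988.5 and 93379.8 normalized counts. The leukocyte and endothelial genes PTPRC, CD3E, PECAM1 and CDH5 were between 0 and 3.0. Of the fibroblast genes, LUM reached 714.7 in the SW620 control and COL1A1 982.2 in HCT116 knockdown library 2, while DCN stayed at 6.2 or less. The summed fibroblast list was 1485 and 1588 in the SW620 knockdown libraries, against 2484 in the SW620 control, and 825 and 1449 in the HCT116 knockdown libraries, against 1494 in the HCT116 control. The part of these genes in the results was not tested.

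The median D over the 10690 genes was -0.11, with quartiles of -0.43 and 0.18. The quartiles of the log2 ratio of knockdown to control were -0.16 and 0.15 in SW620, with a median of 0.01, and -0.20 and 0.42 in HCT116, with a median of 0.11. Across genes the SW620 and HCT116 ratios had a Pearson r of 0.22 and a Spearman rho of 0.26, values that describe genes and not independent replicates. D was at least 1 in size for 863 genes, or 8.07% of those compared, with 226 (2.11%) at 1 or more and 637 (5.96%) at -1 or less. In 524 of the 637 and in 176 of the 226, the larger of the 2 ratios in size belonged to HCT116. HCT116 ratios were also spread wider over all genes, and the matching share of all genes was not counted. These counts are therefore not read as particular to the genes with a large D. Only 121 of the 637 and 54 of the 226 stayed past 1 in all 4 pairings of a single SW620 library with a single HCT116 library. In 92 and 17 of them, at least 1 pairing gave 0 or the other sign. Without HCT116 library 2, 1826 genes had D of at least 1 in size, and 1180 of these were at -1 or less. Without HCT116 library 1, the genes at -1 or less numbered 367.

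**Figure D1:**
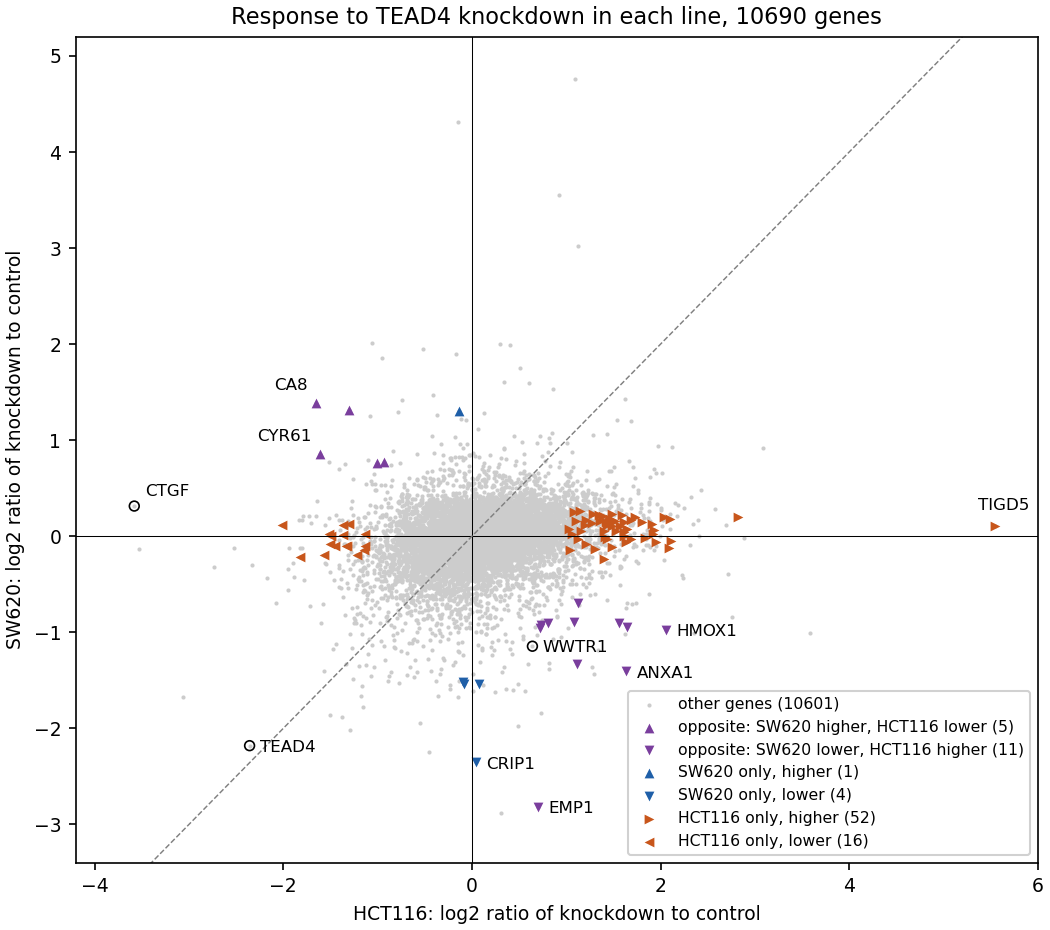
Log2 ratio of knockdown to control in SW620 (vertical axis) against the same in HCT116 (horizontal axis) for the 10690 genes, each point 1 gene, with opposite and one-line genes coloured and a few named. The points spread wider along the HCT116 axis than along the SW620 axis, opposite genes fill the upper left and lower right, and CTGF sits at -3.58 in HCT116 and 0.31 in SW620.

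No gene passed an adjusted p of 0.05 for the difference between lines in limma (0% of the 18743 genes tested), where 423 had an unadjusted p below 0.05, or 2.26%. Over the 10690 genes alone, 154 did, or 1.44%. With edgeR's quasi-likelihood test the count was also 0, with 315 unadjusted, and with DESeq2 it was 1 (0.00534%), with 270 unadjusted. For each line taken alone, limma also called 0 genes, with 272 (1.45%) unadjusted in SW620 and 1036 (5.53%) in HCT116, and DESeq2 called 7 (0.0373%) in SW620 and 17 (0.0907%) in HCT116. The gene that DESeq2 called between lines was CTGF, with an estimated difference of 3.95 and an adjusted p of 6.24e-05 in DESeq2. The limma standard error of the difference had a median of 0.51 over the genes compared, with 1 control in each line shared by both of its knockdown libraries. Limma's adjusted p for the difference was about 1 for every gene named below, so the opposite and one-line genes are given as measured patterns that did not pass the test across all genes.

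CTGF had the smallest p of the genes compared. It had 96.9 and 115 normalized counts in the SW620 knockdown libraries, against 84.9 in the SW620 control. In HCT116 it had 228 and 227 in the knockdown libraries, against 2736 in the control. Both HCT116 knockdown libraries were thus about 12-fold below their control and almost equal to each other, while the SW620 values lay above theirs by a factor of 1.24. D was 3.89, the limma difference was 3.89 ± 0.49 (SE) and its unadjusted p was 0.000514. The authors' deposited table gives an adjusted p of 7.66e-07 for CTGF in HCT116 and 1 in SW620. The SW620 control held 87 CTGF reads, so the SW620 ratio was read from a low level. CTGF fell in neither class described below, because SW620 library 2 was 0.43 log2 units above its control, past the 0.32 allowed for a flat line.

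CYR61, the CCN family neighbour of CTGF in most YAP/TAZ target lists, went in opposite directions. It had 112 and 120.0 normalized counts in the SW620 knockdown libraries, against 63.5 in the SW620 control, and both lay above that control. HCT116 gave 752 and 2063 in the knockdown libraries, against 4296 in the control, and both lay below it. D was 2.47, and limma gave 2.64 ± 0.90 (SE) with an unadjusted p of 0.0317. The SW620 side rested on 113 and 117 reads, against 65 in its control. For SW620 alone, limma gave 0.86 ± 0.63 (SE) with an unadjusted p of 0.234. The distance between the HCT116 knockdown libraries was large beside the SW620 response, and leaving out single libraries or changing the settings moved the limma estimate between 1.91 and 3.37.

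HMOX1 encodes heme oxygenase, an enzyme that breaks down heme and is a target of the oxidative stress factor NRF2. It had 48.4 and 36.9 normalized counts in the SW620 knockdown libraries, against 84.9 in the SW620 control. The HCT116 knockdown libraries held 793 and 648, against 173 in the HCT116 control. Both SW620 libraries were below and both HCT116 libraries above their controls, with log2 ratios of -0.98 and 2.05. D was -3.03, and limma gave -3.04 ± 0.59 (SE) with an unadjusted p of 0.00357, while the SW620 side rested on 49 and 36 reads, against 87 in its control.

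WWTR1, which encodes TAZ, had 361 and 211 normalized counts in the SW620 knockdown libraries, against 634 in the SW620 control. Its HCT116 values were 3208 and 1868 in the knockdown libraries, against 1627 in the control. Both SW620 knockdown libraries were lower than their control and both HCT116 libraries were higher, but HCT116 knockdown library 2 lay above its control by less than the 1.5-fold used for an opposite response. D was -1.79, and limma gave -1.79 ± 0.70 (SE) with an unadjusted p of 0.0507.

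**Figure D2:**
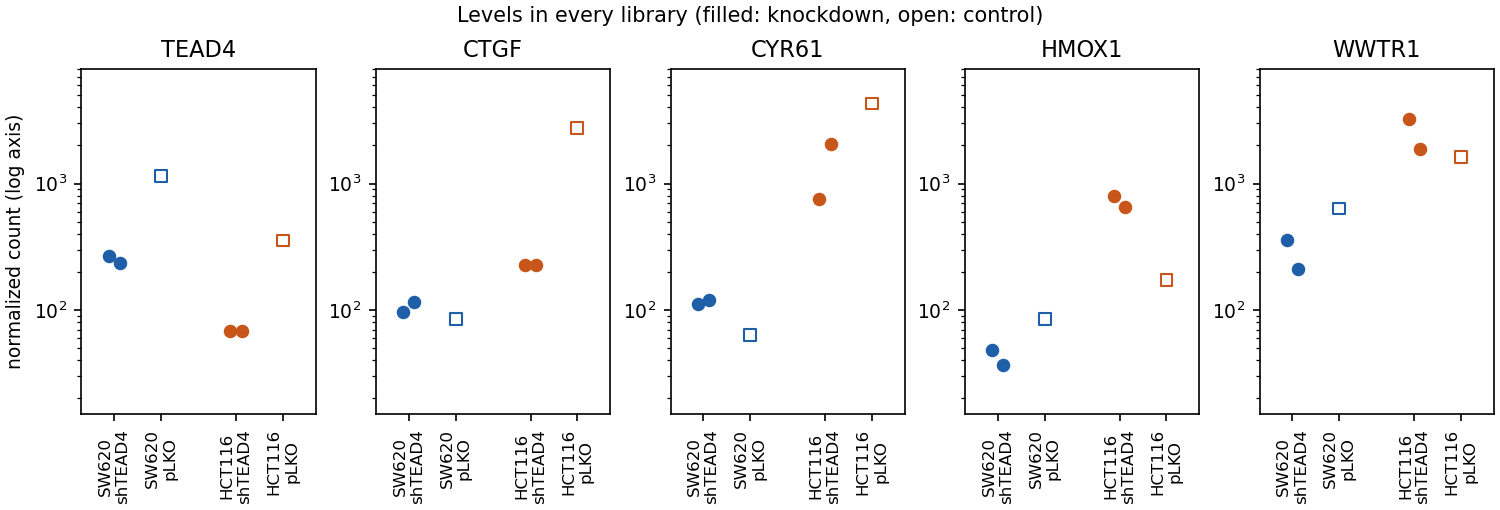
Normalized counts on a log axis of TEAD4, CTGF, CYR61, HMOX1 and WWTR1 in each library, with the knockdown libraries left of the control within each line and SW620 left of HCT116. TEAD4 is lower under knockdown in both lines, CTGF and CYR61 are lower under knockdown in HCT116 and not in SW620, and HMOX1 is lower in SW620 and higher in HCT116.

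The genes with the next smallest unadjusted p in the test between lines were CA8, TUBB6 and CRIP1. TUBB6 encodes a beta tubulin, and since tubulin genes are similar in sequence its reads may be shared with relatives. It had 257 and 221 normalized counts in the SW620 knockdown libraries, against 723 in the SW620 control. HCT116 gave 3203 and 2537 in the knockdown libraries, against 2239.6 in the control. The SW620 knockdown libraries were about 3.02-fold below their control and the HCT116 libraries above theirs by a factor of 1.28, so D was -1.95 with a limma estimate of -1.94 ± 0.42 (SE) and an unadjusted p of 0.00546.

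An opposite response was defined as each knockdown library of one line at least 1.5-fold above its control and each of the other line at least 1.5-fold below. It was met by 16 genes, or 0.15% of those compared. In SW620 alone, 60 genes (0.561%) were at least 1.5-fold higher in both libraries and 238 (2.23%) lower. In HCT116 alone, 646 (6.04%) were higher and 426 (3.99%) lower. Each opposite gene is in 1 of these sets in each line, so the class could not exceed them in size. Of the 60 genes higher in SW620, 5 were also lower in HCT116, beside 3.99% of all genes. Of the 238 genes lower in SW620, 11 were also higher in HCT116, beside 6.04% of all genes. Of the 16, 5 (0.0468%) were higher in SW620 and lower in HCT116, and 11 (0.103%) were lower in SW620 and higher in HCT116. All of the 11 and 3 of the 5 had an unadjusted p below 0.05 in limma, beside 1.44% of all genes compared. With 1 library left out the condition is looser, and 90 genes met it without SW620 library 1, 25 without SW620 library 2, 23 without HCT116 library 1 and 52 without HCT116 library 2. The 16 genes were chosen on the same values, so their p-values describe them and test nothing.

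Among the 5 genes that were higher in SW620 and lower in HCT116, D ran from 1.71 to 3.04, and CYR61 was described above. CA8 encodes a carbonic anhydrase relative without enzyme activity. It had 98.8 and 124 normalized counts in the SW620 knockdown libraries, against 42.0 in the SW620 control. HCT116 held 68.2 and 63.3 in the knockdown libraries, against 209 in the control. D was 3.04 and limma gave 3.04 ± 0.65 (SE) with an unadjusted p of 0.00528. As the definition of the class requires, no knockdown value of either line crossed its control.

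ENPP1 encodes an ectoenzyme that makes pyrophosphate outside the cell and degrades the immune signal cGAMP. Its SW620 knockdown libraries held 213 and 248 normalized counts, against 136 in the SW620 control. Its HCT116 knockdown libraries held 326 and 300.2, against 630.3 in the HCT116 control. With D = 1.77 and a smallest single-library response of 1.56-fold, it was the gene of this kind nearest the limit, and HLA-DQB1 at 1.49-fold was the nearest outside. KCNAB1, a potassium channel beta subunit, had 58.3 and 63.6 in the SW620 knockdown libraries, against 35.1 in the SW620 control, and 65.5 and 47.2 in the HCT116 knockdown libraries, against 109 in the HCT116 control (D = 1.71). LOC643201, a locus without a gene name, had 128 and 265 in the SW620 knockdown libraries, against 78.1 in the SW620 control, and 66.4 and 22.5 in the HCT116 knockdown libraries, against 111 in the HCT116 control (D = 2.61). The SW620 control was above the HCT116 control for 0 of the 5 genes, beside 62.9% of all genes compared, on scales normalized separately. The control values also enter the ratios that define the class, and the part of control level was not tested.

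The 11 genes that were lower in SW620 and higher in HCT116 ran from D = -3.51 to -1.65. EMP1, which encodes a four-span membrane protein of epithelia, had the largest D in size. It had 144 and 39.0 normalized counts in the SW620 knockdown libraries, against 650.3 in the SW620 control. HCT116 held 3194 and 3308 in the knockdown libraries, against 2001 in the control. The SW620 libraries were about 7.03-fold below their control and the HCT116 libraries above theirs by a factor of 1.62. Limma gave -3.80 ± 1.09 (SE) with an unadjusted p of 0.0173, and the authors' deposited table lists an adjusted p of 0.00648 in SW620 and 1 in HCT116.

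ANXA1 encodes annexin A1, a calcium-dependent phospholipid-binding protein that dampens inflammation. It had 50.4 and 20.5 normalized counts in the SW620 knockdown libraries, against 95.7 in the SW620 control. The HCT116 knockdown libraries held 16415 and 9969.5, against 4242 in the HCT116 control. Its SW620 values rested on 51 and 20 reads, against 98 in the control. D was -3.04, with a limma estimate of -3.13 ± 0.88 (SE) and an unadjusted p of 0.0159.

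Both PLIN2 and ACSL5 act in lipid handling, PLIN2 as a coat protein of lipid droplets and ACSL5 as an enzyme that activates long-chain fatty acids. PLIN2 had 2761 and 2134 normalized counts in the SW620 knockdown libraries, against 4562 in the SW620 control, and 639 and 375 in the HCT116 knockdown libraries, against 171 in the HCT116 control. ACSL5 had 128 and 79.0 in the SW620 knockdown libraries, against 262 in the SW620 control, and 2314 and 2683 in the HCT116 knockdown libraries, against 1156 in the HCT116 control. D was -2.46 for PLIN2 and -2.44 for ACSL5. As the class requires, each SW620 knockdown library was below and each HCT116 knockdown library above its control in both genes. Limma gave -2.42 ± 0.58 (SE) for PLIN2 with an unadjusted p of 0.00885 and -2.48 ± 0.56 (SE) for ACSL5 with an unadjusted p of 0.00668.

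GLIS2 and FOXL1 encode transcription factors, a Krüppel-like zinc finger protein and a forkhead protein. GLIS2 had 60.3 and 65.6 normalized counts in the SW620 knockdown libraries, against 122 in the SW620 control, and 509 and 759 in the HCT116 knockdown libraries, against 202 in the HCT116 control (D = -2.59). FOXL1 had 109 and 113 in the SW620 knockdown libraries, against 179.7 in the SW620 control, and 142 and 91.1 in the HCT116 knockdown libraries, against 52.9 in the HCT116 control (D = -1.82). GRIN2D, a subunit of NMDA-type glutamate receptors, had 36.6 and 55.4 in the SW620 knockdown libraries, against 85.9 in the SW620 control, and 1020.0 and 763 in the HCT116 knockdown libraries, against 419.9 in the HCT116 control (D = -1.97). In all 3 genes the knockdown libraries of a line lay on one side of its control, as the definition of the class requires.

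The other 3 genes had the smallest differences. ALDH3B1, an aldehyde dehydrogenase, had D = -1.71, RILP, an effector of the lysosomal GTPase RAB7, had D = -1.68 and TSPAN1, a tetraspanin, had D = -1.65. ALDH3B1 was the gene nearest the limit, at 1.51-fold in its weakest library, and ZNF469 was the nearest outside at 1.49-fold, although its D was -4.59.

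**Figure D3:**
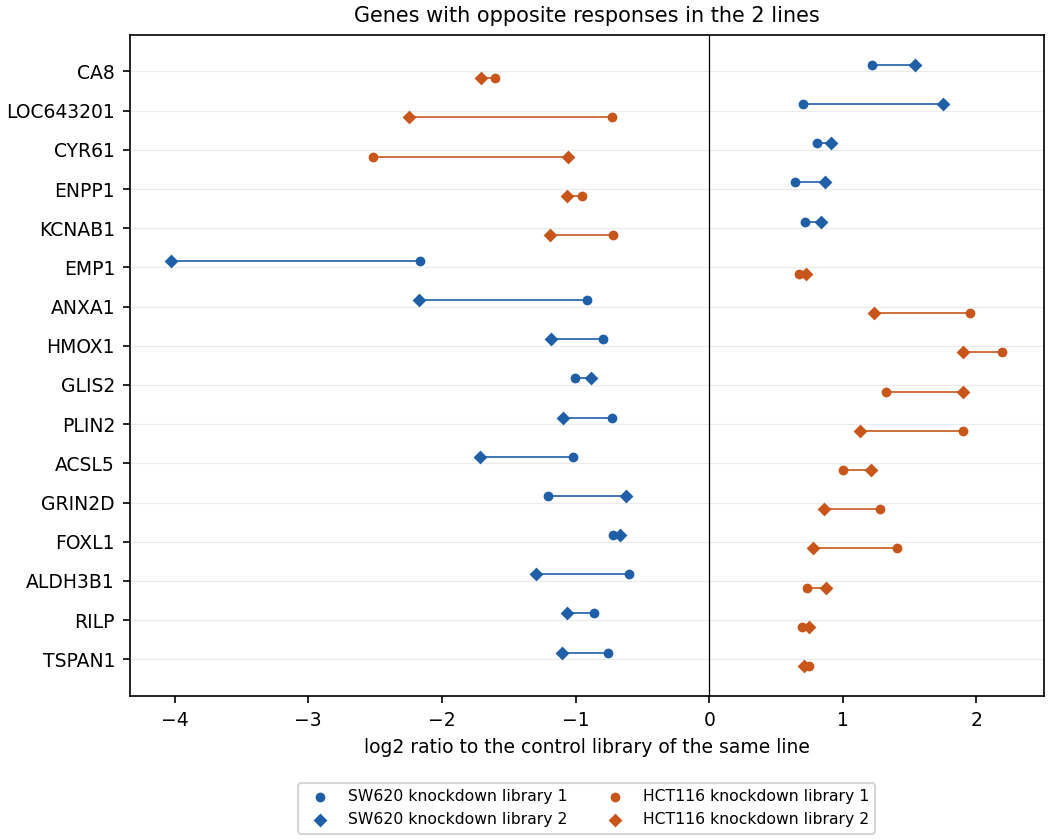
Log2 ratio of each knockdown library to its own control for the 16 opposite genes, with SW620 points and HCT116 points in separate colours and 1 gene per row. In the 5 genes at one end both SW620 libraries are above 0 and both HCT116 libraries below, and in the other 11 the sides are exchanged, with EMP1 reaching the lowest SW620 values.

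A one-line response was defined as both libraries of one line at least 2-fold from their control in the same direction and both libraries of the other line within 0.32 log2 units of theirs. It was met by 73 genes, or 0.683% of those compared. In SW620 alone, 1 (0.00935%) was higher and 4 (0.0374%) were lower. In HCT116 alone, 52 (0.486%) were higher and 16 (0.15%) were lower. How often each line met either condition is given beside these counts. In both SW620 libraries, 5 genes (0.0468%) were at least 2-fold higher and 66 (0.617%) lower, and in both HCT116 libraries 135 (1.26%) were higher and 98 (0.917%) lower. Both libraries were within 0.32 log2 units of control for 59.1% of genes in SW620 and for 20.9% in HCT116. Among the 66 genes lower in SW620, 4 (6.06%) were flat in HCT116, beside 20.9% of all genes. Among the 135 genes higher in HCT116, 52 (38.5%) were flat in SW620, beside 59.1% of all genes, and among the 98 lower in HCT116, 16 (16.3%) were. Without 1 library the condition rests on a single library of that line and is looser: the count was then 148 without SW620 library 1, 146 without SW620 library 2, 201 without HCT116 library 1 and 860 without HCT116 library 2.

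The split of the HCT116 one-line genes by direction moved with the scaling. When each library was centred on its median log2 ratio, 31 were higher and 25 lower in HCT116 alone, in place of 52 and 16. The medians subtracted were 0.04 and -0.01 in the SW620 knockdown libraries and 0.05 and 0.10 in the HCT116 knockdown libraries. Centring within bins of GC content gave 32 and 24. Under median centring 49 of the 73 one-line genes remained, and all 16 opposite genes did.

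CRIP1 had the largest difference among the SW620 one-line genes. It encodes a small LIM domain zinc-binding protein. It had 37.6 and 30.8 normalized counts in the SW620 knockdown libraries, against 179 in the SW620 control. HCT116 held 1109 and 875 in the knockdown libraries, against 962 in the control, and these values lay on both sides of that control. D was -2.40, and limma gave -2.39 ± 0.52 (SE) with an unadjusted p of 0.00598.

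SLC5A3, the transporter that brings myo-inositol into the cell, was the most abundant SW620 one-line gene. It had 4033 and 4844 normalized counts in the SW620 knockdown libraries, against 12907 in the SW620 control. In the HCT116 knockdown libraries it had 839.9 and 1041, against 998 in the HCT116 control. The SW620 libraries were about 2.91-fold below their control and the HCT116 values lay around theirs, with D = -1.45, a limma estimate of -1.45 ± 0.40 (SE) and an unadjusted p of 0.0157. The authors' deposited table gives SLC5A3 an adjusted p of 0.000281 in SW620 and 1 in HCT116.

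EGR3, an early growth response transcription factor induced by ERK signalling, had 40.5 and 20.5 normalized counts in the SW620 knockdown libraries, against 90.8 in the SW620 control, and 136 and 96.5 in the HCT116 knockdown libraries, against 111 in the HCT116 control (D = -1.61). PDE9A, a phosphodiesterase that degrades cyclic GMP, had 76.1 and 41.0 in the SW620 knockdown libraries, against 169 in the SW620 control, and 374 and 445 in the HCT116 knockdown libraries, against 437 in the HCT116 control (D = -1.42). CPVL, a serine carboxypeptidase, was the only gene higher in SW620 alone, with 212 and 273 in the SW620 knockdown libraries, against 97.6 in the SW620 control, and 259 and 227 in the HCT116 knockdown libraries, against 268 in the HCT116 control (D = 1.44). Median centring left no gene in that class. The nearest genes outside were DLL4 at 1.86-fold for the higher direction and CDKN2B at 1.98-fold for the lower.

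The 52 genes higher in HCT116 alone had D between -5.44 and -0.83, with a median of -1.43. TIGD5 stood at the far end, but its value rested on almost no control reads. It had 168 and 193 normalized counts in the SW620 knockdown libraries, against 168 in the SW620 control, and 264 and 17.2 in the HCT116 knockdown libraries, against 2.03 in the HCT116 control. The 306 reads of both HCT116 knockdown libraries and the 2 reads of the control gave a depth-corrected ratio of 74.1, with a 95% counting interval of 20.3 to 614.0 (exact binomial, counting error only). Library 1 held most of those reads, and without it D was -2.48.

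DUSP2, a nuclear phosphatase that switches off ERK, had 359.8 and 338 normalized counts in the SW620 knockdown libraries, against 303 in the SW620 control. In HCT116 it had 224 and 767 in the knockdown libraries, against 69.1 in the control (D = -2.62). CASP8, the initiator caspase of death receptors, had 502 and 373 in the SW620 knockdown libraries, against 452 in the SW620 control, and 601 and 213 in the HCT116 knockdown libraries, against 93.5 in the HCT116 control (D = -2.16). In both genes the HCT116 knockdown libraries were above the control and far apart from each other. Leaving out single libraries moved D between -3.25 and -1.48 for DUSP2 and between -2.72 and -1.23 for CASP8.

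HFE, which regulates iron uptake at the cell surface, had HCT116 libraries that lay close together. It had 179.9 and 156 normalized counts in the SW620 knockdown libraries, against 183 in the SW620 control, and 91.0 and 106 in the HCT116 knockdown libraries, against 22.4 in the HCT116 control. D was -2.21, and limma gave -2.21 ± 0.62 (SE) with an unadjusted p of 0.0156. FIRRE, a nuclear long noncoding RNA, had 495 and 508 in the SW620 knockdown libraries, against 441 in the SW620 control, and 76.4 and 69.7 in the HCT116 knockdown libraries, against 16.3 in the HCT116 control (D = -1.92). The HCT116 control held 22 reads of HFE and 16 of FIRRE. LOC100996579, a locus without a gene name, had D = -2.01 and 38 reads in the HCT116 control.

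A pair of well-known regulators in this class was picked out after their values were seen. FGF19, an endocrine growth factor of the gut, had 3086 and 3236 normalized counts in the SW620 knockdown libraries, against 3032 in the SW620 control, and 819 and 469 in the HCT116 knockdown libraries, against 168 in the HCT116 control (D = -1.87). SIRT1, a nuclear NAD-dependent deacetylase, had 953 and 966 in the SW620 knockdown libraries, against 838 in the SW620 control, and 777 and 742 in the HCT116 knockdown libraries, against 228 in the HCT116 control (D = -1.54). As the class requires, both were near their control level in SW620 and more than 2-fold above it in both HCT116 libraries.

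The controls of the 52 genes were not alike in the lines. The SW620 control was above the HCT116 control for 49 of the 52, beside 62.9% of all genes compared, and the control medians were 697 in SW620 and 207 in HCT116, on scales normalized separately. Each control value is also part of the ratios that define the class, so a low HCT116 control favours entry into it. HCT116 knockdown library 1 was further from control than library 2 in 40 of the 52, beside 61.7% of all genes. Their transcripts had a median GC content of 52.9%, beside 48.2% over all genes with a value. A median above 48.2% was not particular to them. It was 54.5% in the 11 opposite genes lower in SW620, and the genes lower in SW620 alone were also above 48.2%. The other classes lay below it, with 47.6% in the 16 genes lower in HCT116 alone. Over the 10579 genes with a value, D and GC content had a Spearman rho of 0.0. For the ratios of single knockdown libraries 1 and 2, rho with GC content was -0.01 and -0.11 in SW620. It was -0.11 and 0.04 in HCT116. The part of control level, library 1 or GC content in the responses of the 52 genes was not tested. At the limit of the class, RAI14 was just inside at 2.0-fold and WDR77 just outside at 1.99-fold.

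The 16 genes lower in HCT116 alone had D between 1.00 and 2.13, with a median of 1.37. PDIA4, a protein disulfide isomerase of the endoplasmic reticulum, was the most abundant of those named. It had 8564 and 7022 normalized counts in the SW620 knockdown libraries, against 7146 in the SW620 control, and 4952 and 7260.0 in the HCT116 knockdown libraries, against 15107 in the HCT116 control. As the class requires, both HCT116 libraries were at least 2-fold below their control and the SW620 values lay around theirs. D was 1.43, and limma gave 1.45 ± 0.50 (SE) with an unadjusted p of 0.0328.

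HIST2H2BE, a histone H2B gene, had 83.0 and 69.7 normalized counts in the SW620 knockdown libraries, against 70.3 in the SW620 control, and 24.6 and 136 in the HCT116 knockdown libraries, against 327 in the HCT116 control (D = 2.13). Its reads may be shared with near-identical histone genes, and D was 1.38 without HCT116 library 1 and 3.80 without library 2. ARRDC4, an arrestin-domain protein that responds to glucose, had 332 and 226 in the SW620 knockdown libraries, against 279 in the SW620 control, and 399 and 717 in the HCT116 knockdown libraries, against 1572 in the HCT116 control (D = 1.49). F10, coagulation factor X, had 400.3 and 321 in the SW620 knockdown libraries, against 355 in the SW620 control, and 53.7 and 37.5 in the HCT116 knockdown libraries, against 132 in the HCT116 control (D = 1.54). AFAP1L2, an actin filament associated adaptor, had D = 1.61, and KDELC1, a glycosyltransferase of the endoplasmic reticulum, had D = 1.48. PLOD2 was just inside the class at 2.04-fold and PER2 just outside.

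**Figure D4:**
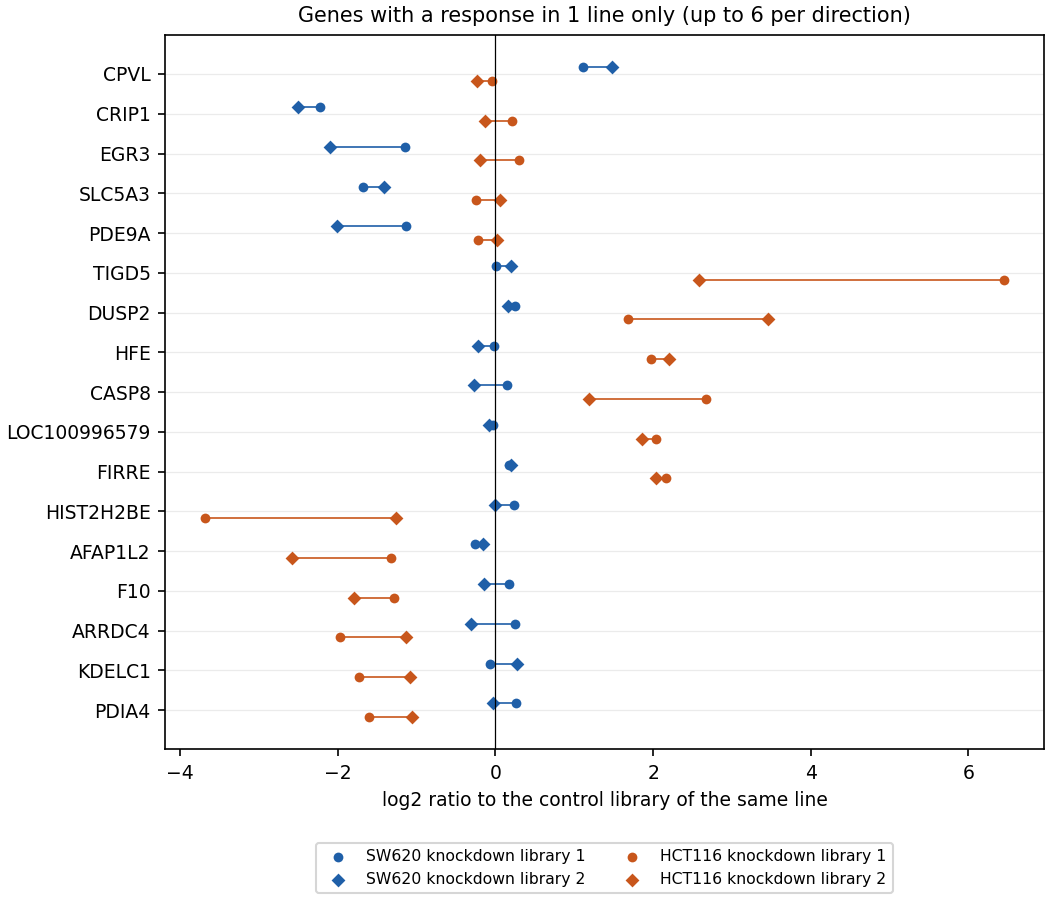
Log2 ratio of each knockdown library to its own control for the named one-line genes, grouped by class, with SW620 and HCT116 points in separate colours. The SW620 points of the HCT116 genes cluster near 0 while the paired HCT116 points are often far apart, as for TIGD5, DUSP2 and HIST2H2BE.

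The pathway lists were read next, each by its members among the 10690 genes. YAP/TAZ-TEAD targets did not share one direction. Of 26 listed genes, 18 were compared, with 2 at D of 1 or more (CTGF and CYR61), or 11.1% beside 2.11% of all genes, 3 at -1 or less, or 16.7% beside 5.96%, and a median of -0.15, beside -0.11 over all genes. MYOF and AXL were named after their values were seen. MYOF, a membrane repair protein, had 4734 and 979 normalized counts in the SW620 knockdown libraries, against 4830.1 in the SW620 control, and 5991 and 7768 in the HCT116 knockdown libraries, against 4822 in the HCT116 control (D = -1.27). In SW620, library 1 stayed close to the control and library 2 lay well below it. FJX1, a relative of the fly Golgi kinase four-jointed, had D = -1.36 where HCT116 library 1 held 252, against 41.8 in library 2 and 35.6 in the HCT116 control, and without library 1 its D was 0.43. AXL, a receptor tyrosine kinase, had D = -1.08.

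In the list of Hippo pathway and TEAD genes, 23 were compared, 0 had D of 1 or more and 3 (13.0%, beside 5.96% of all genes) had -1 or less, namely WWTR1, TEAD2 and YAP1. YAP1 had 9567 and 2969.6 normalized counts in the SW620 knockdown libraries, against 8427 in the SW620 control, and 2733 and 2713 in the HCT116 knockdown libraries, against 1501 in the HCT116 control (D = -1.29). TEAD2, a paralog of TEAD4, had 373 and 115.9 in the SW620 knockdown libraries, against 417 in the SW620 control, and 349 and 318 in the HCT116 knockdown libraries, against 212 in the HCT116 control (D = -1.42). For YAP1 the SW620 libraries lay on both sides of the control, and for both genes the SW620 side of D came mostly from library 2, without which D was -0.68 for YAP1 and -0.81 for TEAD2. The median D of the list was -0.10, beside -0.11 over all genes.

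Endoplasmic reticulum chaperones and the unfolded protein response had the highest median D of the lists with at least 10 genes compared, at 0.82 over 22 genes. Of these, 6 (27.3%) had D of 1 or more, beside 2.11% of all genes, and 0 had -1 or less. D was above 0 in 20 of the 22, while over all genes the median was -0.11 and the upper quartile 0.18. The share of all genes above 0 was not counted. The median log2 ratios were 0.27 and 0.13 in SW620 knockdown libraries 1 and 2, and -0.98 and -0.46 in HCT116 knockdown libraries 1 and 2. HSPA5, the main chaperone BiP, had 13229 and 11406 normalized counts in the SW620 knockdown libraries, against 11355 in the SW620 control, and 15285 and 72816 in the HCT116 knockdown libraries, against 130042 in the HCT116 control (D = 1.68). HERPUD1, which takes part in degrading misfolded proteins, had 826 and 620.4 in the SW620 knockdown libraries, against 713 in the SW620 control, and 845 and 3323 in the HCT116 knockdown libraries, against 5192 in the HCT116 control (D = 1.34). For both genes HCT116 library 1 lay further below the control than library 2, and without library 1 D was 0.95 for HSPA5 and 0.66 for HERPUD1. The SW620 values lay around their control or just above it. Of the 22 genes, 2 had an unadjusted p below 0.05 in limma, beside 1.44% of all genes compared, and 0 an adjusted one.

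Among the 21 ATF4 amino acid response genes compared, 4 (19.0%, beside 2.11% of all genes) had D of 1 or more, 0 had -1 or less and the median was 0.05, beside -0.11 over all genes. DDIT3, the stress factor CHOP, had 148 and 160.0 normalized counts in the SW620 knockdown libraries, against 133 in the SW620 control, and 179 and 1564 in the HCT116 knockdown libraries, against 3015 in the HCT116 control (D = 2.0). SLC3A2, the heavy chain of an amino acid transporter, had 7262 and 7252 in the SW620 knockdown libraries, against 4775 in the SW620 control, and 3688 and 6088 in the HCT116 knockdown libraries, against 6925 in the HCT116 control (D = 1.11). Both HCT116 knockdown libraries were below their control in both genes. The size for DDIT3 rested on HCT116 library 1, with D = 1.16 without it and 4.28 without library 2.

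The list of AP-1, EGR and ERK feedback genes leaned the other way, with a median D of -0.67 over 24 genes. Of these, 5 (20.8%) had D of -1 or less, beside 5.96% of all genes, and 1 (4.17%, beside 2.11%) had D of 1 or more. D was below 0 in 21 of the 24, but with a median of -0.11 most of all genes compared were also below 0. The exact share of all genes below 0 was not counted. EGR3 was described above. DUSP4, a nuclear phosphatase that switches off ERK, had 1271 and 1453 normalized counts in the SW620 knockdown libraries, against 1785 in the SW620 control, and 6716 and 3463 in the HCT116 knockdown libraries, against 2796 in the HCT116 control (D = -1.25). FOSL1, an AP-1 subunit, had 804 and 268 in the SW620 knockdown libraries, against 732 in the SW620 control, and 2469.5 and 6704 in the HCT116 knockdown libraries, against 2354 in the HCT116 control (D = -1.41). For FOSL1 1 library of each line was near its control, and leaving out single libraries moved its D between -2.41 and -0.52. Without HCT116 library 1, D was -0.70 for DUSP4. None of the 24 had an unadjusted p below 0.05 in limma, beside 1.44% of all genes compared.

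In the NRF2, heme and glutathione list, 30 genes were compared, 3 (10.0%, beside 5.96% of all genes) had D of -1 or less, 1 (3.33%, beside 2.11%) had D of 1 or more and the median was -0.29, beside -0.11 over all genes. D was below 0 in 23 of the 30, but most of all genes compared were also below 0, in a share that was not counted. HMOX1 led it. ABCC2, an export pump for conjugated compounds, had 988 and 1331 normalized counts in the SW620 knockdown libraries, against 1129 in the SW620 control, and 1549.6 and 1063 in the HCT116 knockdown libraries, against 425 in the HCT116 control (D = -1.58). AKR1C3, an aldo-keto reductase, had D = 1.30, with 1241 and 2202 in the SW620 knockdown libraries, against 1626 in the SW620 control, and 61.0 and 71.8 in the HCT116 knockdown libraries, against 156 in the HCT116 control. Reads of AKR1C3 may be shared with its close relatives. Without SW620 library 2 its D was 0.83.

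Integrin, laminin and matrix genes had a median D of 0.28 over 24 genes, beside -0.11 over all genes. D was above 0 in 17 of them, and the share of all genes above 0 was not counted. Of the 24, 1 (4.17%, beside 2.11% of all genes) was at 1 or more and 1 (4.17%, beside 5.96%) at -1 or less. ITGA1, a collagen-binding integrin subunit, had 493 and 569 normalized counts in the SW620 knockdown libraries, against 411 in the SW620 control, and 67.3 and 56.8 in the HCT116 knockdown libraries, against 196 in the HCT116 control (D = 2.01). Limma gave it 2.01 ± 0.51 (SE) with an unadjusted p of 0.0111. ITGB4, the hemidesmosome integrin subunit, had 4367 and 1762 in the SW620 knockdown libraries, against 4155 in the SW620 control, and 9009 and 9453 in the HCT116 knockdown libraries, against 4000.4 in the HCT116 control (D = -1.65). Only SW620 library 2 was below its control for ITGB4, while both HCT116 libraries were above theirs.

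Interferon-stimulated genes had a median D of -0.50 over 16 genes, with 5 (31.2%, beside 5.96% of all genes) at -1 or less and 0 at 1 or more. SAMD9 had 441 and 332 normalized counts in the SW620 knockdown libraries, against 317 in the SW620 control, and 1823 and 217 in the HCT116 knockdown libraries, against 169.8 in the HCT116 control (D = -2.30). Without HCT116 library 1 its D was -0.07. The median log2 ratio of the list was 0.36 in HCT116 library 1 and 0.12 in library 2.

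TGF-beta targets had a median D of -0.31 over 17 genes, with 3 (17.6%, beside 5.96% of all genes) at -1 or less and 1 (5.88%, beside 2.11%) at 1 or more. BMP4, a secreted ligand of the family, had 7430.0 and 4267 normalized counts in the SW620 knockdown libraries, against 7593 in the SW620 control, and 2725 and 1359.6 in the HCT116 knockdown libraries, against 793 in the HCT116 control (D = -1.74). ID1, a dominant inhibitor of helix-loop-helix factors and a BMP target, had 756 and 422 in the SW620 knockdown libraries, against 793 in the SW620 control, and 3995 and 2328 in the HCT116 knockdown libraries, against 1335 in the HCT116 control (D = -1.67). In both genes every SW620 knockdown library was below and every HCT116 library above its control, but SW620 library 1 by little. Without HCT116 library 1, D was -1.15 for BMP4.

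Keratins and junction genes had a median D of -0.30 over 26 genes, with 2 (7.69%, beside 5.96% of all genes) at -1 or less and 1 (3.85%, beside 2.11%) at 1 or more. KRT23 had 321 and 149 normalized counts in the SW620 knockdown libraries, against 475 in the SW620 control, and 569 and 166 in the HCT116 knockdown libraries, against 119 in the HCT116 control (D = -2.63). KRT80 had 3137 and 629.6 in the SW620 knockdown libraries, against 1624 in the SW620 control, and 828 and 1352 in the HCT116 knockdown libraries, against 265 in the HCT116 control (D = -1.82). The SW620 libraries thus lay on both sides of the control for KRT80. Without SW620 library 2, D was -1.08 for KRT80, and without HCT116 library 1 it was -1.49 for KRT23. VIM, the intermediate filament of mesenchymal cells, had 2725 and 1014 in the SW620 knockdown libraries, against 3942 in the SW620 control, and 57.3 and 83.6 in the HCT116 knockdown libraries, against 57.9 in the HCT116 control (D = -1.35), and without SW620 library 2 its D was -0.81. The median D of the mesenchymal markers was -0.31 over 12 genes, with 2 (16.7%, beside 5.96%) at -1 or less.

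For the remaining lists, the median D was -0.31 for NF-kB and inflammatory genes. Of these 12, 3 (25%, beside 5.96% of all genes) were at -1 or less and 1 (8.33%, beside 2.11%) at 1 or more. For Wnt/beta-catenin targets the median was -0.35, with 3 of 13 (23.1%) at -1 or less and 1 (7.69%) at 1 or more. For hypoxia and glycolysis genes it was 0.07. Of these 24, 1 (4.17%, beside 5.96% of all genes) was at -1 or less and 2 (8.33%, beside 2.11%) at 1 or more. The median was -0.23 for DNA replication and G1/S genes (30), -0.20 for G2/M and mitosis genes (27), 0.16 for cholesterol synthesis genes (24) and -0.02 for histone genes (8). No G2/M gene had D of at least 1 in size. With 3 genes or fewer, the intestinal list had a median of -0.36, the fibroblast list -0.45, the leukocyte list 0.30 and the endothelial list -0.40.

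**Figure D5:**
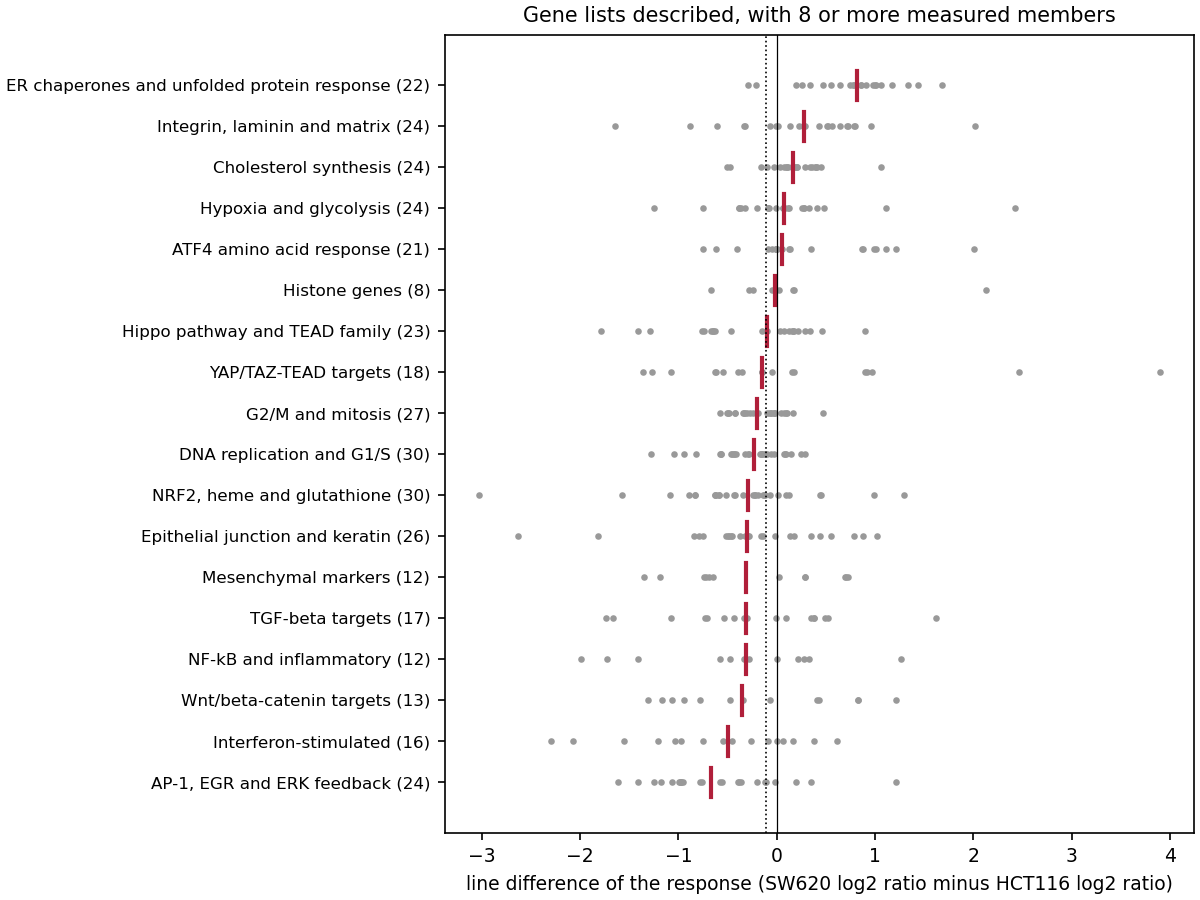
D (horizontal axis, log2 units) of each compared member of the described lists with at least 8 such members, 1 row per list, each point 1 gene and the bar the median, with the median over all 10690 genes as a vertical line. The chaperone list lies to the right with a median of 0.82 and the AP-1, EGR and ERK list to the left with -0.67, while the YAP/TAZ-TEAD list is centred near all genes with CTGF far to the right.

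The genes whose 4 library ratios were nearest to those of CTGF, by Euclidean distance over the 10690 genes, were PLAG1 at 1.27, FAM46C at 1.79 and SLC2A3 at 1.86. PLAG1, a zinc finger transcription factor, had 378 and 210.2 normalized counts in the SW620 knockdown libraries, against 323 in the SW620 control, and 14.6 and 30 in the HCT116 knockdown libraries, against 267 in the HCT116 control (D = 3.39). SLC2A3, the glucose transporter GLUT3, had 416 and 197 in the SW620 knockdown libraries, against 382 in the SW620 control, and 205 and 122 in the HCT116 knockdown libraries, against 1096 in the HCT116 control (D = 2.42). FAM46C, a noncanonical poly(A) polymerase, had D = 2.40. All 3 were far below their control in both HCT116 knockdown libraries, and their SW620 knockdown values lay on both sides of the control. They missed the one-line class because an SW620 library was more than 0.32 log2 units from its control.

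For HMOX1 the nearest genes were EVA1C at 0.71, PLIN2 at 0.83 and GLIS2 at 0.94. EVA1C, a membrane protein of the EVA1 family, had 95.9 and 74.9 normalized counts in the SW620 knockdown libraries, against 139 in the SW620 control, and 220.2 and 132 in the HCT116 knockdown libraries, against 51.8 in the HCT116 control (D = -2.44). SW620 library 1 was below its control by less than 1.5-fold, which kept EVA1C out of the opposite class.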

How the data were processed

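RNA sequencing of 6 libraries from SW620 and HCT116 was analysed. The submitters' processing notes name Bowtie 0.12.2 and build hg18. How reads were assigned to genes, whether strand was used and how reads with several matches were treated is not given in the sources used here. One deposited table per line gives, for each gene, a normalized count (signal) in 2 knockdown libraries and 1 control, and the authors' deposited log2 fold change and adjusted p-value of that line. The signal values made by the authors were reads divided by 1 size factor per library: 100% of them were whole multiples within 1e-06, so reads were recovered by division. The deposited column numbers 1 and 2 could not be tied to the letters in the library labels. The tables were normalized separately, so tests used ratios within a line, and levels set across lines in the text are descriptions. Names turned into dates (28 features, 0.232% to 0.262% of the signal) were left out.

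Members, classes and lists were chosen with earlier results of these data known. Ratios used log2(value + 1), which understates the change of low genes. Limma 3.58.1 (R 4.3.3; trend, 4 groups, 2 residual degrees of freedom) was fitted to the 18743 genes with a mean of at least 1, and p-values were adjusted by Benjamini-Hochberg over all of them. The lone controls were assumed to vary like the knockdown pairs. The test, the edgeR 4.0.16 quasi-likelihood test and DESeq2 1.42.0 on recovered reads were tested on simulated data. Intervals cover counting error only. Named genes were TEAD4, 4 markers, up to 8 opposite and 6 one-line genes per direction by size of D, the 5 smallest p, up to 3 genes per list by size of D, and the 3 nearest neighbours of CTGF and HMOX1. The last 3 opposite genes, the genes at class limits, MYOF, AXL, FGF19 and SIRT1 were added after their values were seen. Symbols were matched to GENCODE 29 and RefSeq for 95.6% of genes. Alternatives covered the pseudocount, the filters, the scaling, the folds and each left-out library. Some genes and 1 list met by these rules are not reported here.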

Additional observations from a re-analysis of the deposited data

Results flagged for a closer look

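The 16 opposite genes stood out because both libraries of one line were at least 1.5-fold above their control and both of the other line at least 1.5-fold below theirs. D, as the log2 ratio in SW620 minus that in HCT116, was 3.04 for CA8, 2.61 for LOC643201, 2.47 for CYR61, 1.77 for ENPP1 and 1.71 for KCNAB1. It was -3.51 for EMP1, -3.04 for ANXA1, -3.03 for HMOX1, -2.59 for GLIS2, -2.46 for PLIN2, -2.44 for ACSL5, -1.97 for GRIN2D, -1.82 for FOXL1, -1.71 for ALDH3B1, -1.68 for RILP and -1.65 for TSPAN1. In each of the 16 the difference between lines was tested with limma across 18743 genes and did not pass an adjusted p of 0.05. CTGF stood out by the test of the difference itself in DESeq2, with 3.95 log2 units and an adjusted p of 6.24e-05, while limma and edgeR did not call it.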

How the results depend on the processing

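The limma count for the difference between lines was 0 under every alternative fit run, and DESeq2 called 1 gene. For SW620 and HCT116 taken alone, limma called 0 genes each while DESeq2 called 7 and 17, and limma without a filter on low values called 545 in HCT116. With the library number as a replicate block the difference had 0 calls and 306 genes at an unadjusted p below 0.05, and pairing crossed numbers, an alternative chosen after seeing the data because deviations of same-numbered libraries correlated at -0.191 over 10690 genes, gave 0 and 476. A minimum mean of 20 in each line gave 30 opposite genes, and a minimum of 200 gave 2 opposite genes and 439 with D of at least 1 in size. Raising the opposite fold to 2 left 2 genes, and widening the flat range to 1.5-fold gave 161 one-line genes. Leaving out each knockdown library in turn gave 678 to 1826 genes with D of at least 1 in size, 23 to 90 opposite and 146 to 860 one-line genes; all 16 and 73 were kept each time, since the condition then rested on 1 library of that line. Of the named genes, CD68 ranged between -0.40 and 1.71, ENG between -0.87 and 0.25 (D between -0.86 and 0.27), FJX1 between -2.14 and 0.42 (D between -2.13 and 0.43), HIST1H2BK between -0.70 and 0.31 and HNF4A between -0.94 and 0.61 over the left-out libraries, and changed sign without 1 HCT116 library; the cause was not tested. A pseudocount of 10 kept 14 of the 16 opposite and 62 of the 73 one-line genes. GC centring, chosen after seeing the data, kept 12 and 42. Genes with under 100 reads in a library, as HMOX1 and ANXA1 in SW620, are limited by depth.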
